A study of Macaca fascicularis with 3 samples.

Results

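The cells described here are mouse ovarian stromal cells, 1489 of the 7827 barcodes in 3 single-cell RNA libraries of xenogeneic reconstituted ovaries. A reconstituted ovary is an aggregate in which germ cells of one species are cultured with fetal ovarian somatic cells of another. Here the germ cells came from the cynomolgus monkey embryonic stem cell line 15XRi-AGVT#7, of wildtype genotype and carrying the reporters TFAP2C-EGFP and DDX4-tdTomato. The somatic cells came from mouse ovaries at E13.5, E14.5 or E15.5 (days of mouse embryonic development), with 1 library for each stage. The germ line is therefore 1 cell line in all 3 libraries, and the labels do not say how many mice or aggregates went into each. Before loading, sorted reporter-positive germ cells were mixed with live reporter-negative cells of low forward-scatter width, so sorting and mixing fixed the ratio of mouse to monkey cells.

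A barcode was taken as stromal from its RNA alone. It had to hold at least 1000 unique molecular identifiers (UMIs), with less than 1% of them in the 13 mitochondrial protein genes of the monkey, which marks a cell as mouse. It also had to hold INHA below 1500 CPM (UMIs per 1000000 UMIs), fewer than 2 UMIs of UPK3B and fewer than 3 UMIs of LTF and EHF together. Finally, its summed UMIs of 8 stromal genes (COL1A1, COL1A2, COL3A1, PDGFRA, DCN, LUM, TCF21 and POSTN) had to reach 3 and exceed those of 8 genes of supporting cells (WNT4, AMHR2, FOXL2, FST, LGR5, IRX3, ITGA6 and KRT19). Cells that passed the same limits with the larger sum on the other side, also of at least 3, are called supporting-marker cells below. Cells at or above the INHA limit are called INHA-high. Because RNA chose the cells, every comparison between these classes is a description and carries no test, and with 1 library for each stage none of the comparisons between stages has a replicate check.

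The ovarian stroma is the connective tissue around the follicles and cords. Its fibroblast-like cells build a collagen matrix, receive platelet-derived growth factor and hedgehog signals from neighbouring cells, and in later life give rise to part of the theca, the layer of hormone-producing cells around follicles. Supporting cells, which become the granulosa cells, surround the germ cells and carry their own set of factors such as KITLG, the ligand of the germ cell receptor KIT.

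Values in sets of 3 follow the stages, with E13.5 first and E15.5 last. Stromal cells numbered 637, 223 and 629, out of 1643, 717 and 1739 mouse barcodes. With E13.5 somatic cells they made up 38.8% of the mouse barcodes (36.4 to 41.2, the 95% Clopper-Pearson exact limits). The share was 31.1% in E14.5 (27.7 to 34.6) and 36.2% in E15.5 (33.9 to 38.5). Only the E14.5 interval lay apart from that of E13.5, and intervals here cover counting error only. The median stromal cell held 5309, 4497 and 3957 UMIs in the 3 stages, and the floor of detection, 3 counts in the summed stromal cells, was 0.845, 2.59 and 1.04 CPM. The tables count monkey genes alone, and mouse RNA is seen through reads assigned to these. Levels can therefore be compared for one gene between cells and libraries, but not between genes. In all, 199 barcodes were shared between E14.5 and E13.5, 643 between E15.5 and E13.5 and 212 between E15.5 and E14.5, and 0 of them were stromal in either library of a pair.

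Most stromal cells lay far inside the limits of the rule. The median stromal sum was 33, 37 and 28 UMIs against a median supporting sum of 3, 4 and 4. Exactly 3 stromal UMIs were held by 1, 0 and 5 cells, and 9, 9 and 37 cells exceeded their supporting sum by at most 2 UMIs. These marginal cells held CA3 and CXCL14, which the rule did not use, at a summed 94.6, 248 and 270 CPM. The 11, 11 and 36 cells that missed the rule by a tie or by at most 2 UMIs held them at 29.2, 226 and 108 CPM. Levels on either side of the line were closest in E14.5, where they rest on 9 and 11 cells. Over all stromal cells CA3 alone stood at 417, 680 and 192 CPM, above the sum in marginal cells in E13.5 and E14.5.

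The markers named for these cells were all high in the chosen class, which for COL1A2, COL3A1 and TCF21 follows from the rule. COL1A2, a chain of type I collagen, stood at 2528, 3457 and 3330 CPM in stromal cells, against 92.0, 131 and 76.8 CPM in supporting-marker cells. COL3A1, the type III collagen chain, stood at 1503, 1510 and 1942 CPM, against 46.8, 57.3 and 157 CPM. TCF21, a transcription factor of mesenchymal progenitors in many organs, stood at 818, 750 and 857 CPM, against 46.1, 17.3 and 22.9 CPM. All 3 were an order of magnitude above the other class in every library. Of the markers outside the rule, CA3, a carbonic anhydrase known from muscle and fat, stood at 417, 680 and 192 CPM in stromal cells and at 3.57, 15.2 and 7.55 CPM in supporting-marker cells. CXCL14, a secreted chemokine, stood at 237, 542 and 146 CPM, against 5.20, 29.9 and 3.65 CPM. Both were highest in E14.5 in stromal and also in supporting-marker cells, and lowest in E15.5 in stromal cells. The exact Poisson 95% limits were 396 to 439, 633 to 729 and 176 to 208 CPM for CA3, and 222 to 254, 500 to 586 and 132 to 161 CPM for CXCL14. They cover counting error only and are narrower than the spread between cells, given with the variances below, would make them.

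**Figure D1:**
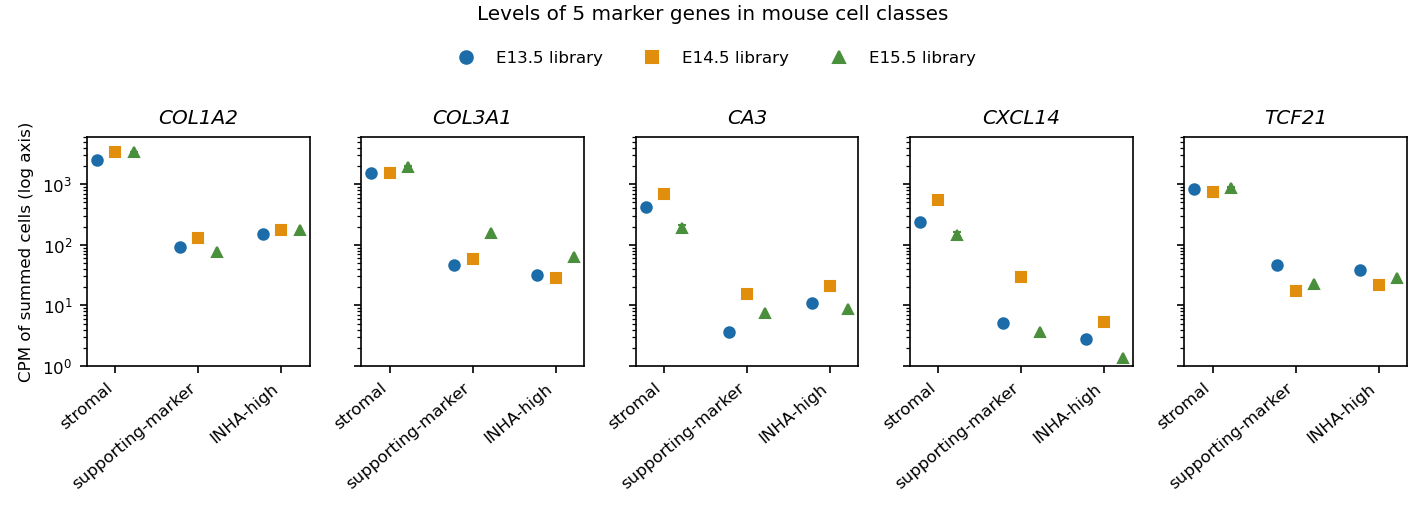
Levels of 5 marker genes in CPM of summed cells (log axis) for stromal, supporting-marker and INHA-high cells, with 1 point for each library and, for stromal cells, the exact Poisson 95% interval. In every panel all 3 stromal points lie above all points of the other classes, as with CA3 at 192 CPM or more in stromal cells and 20.7 CPM or less elsewhere.

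Endothelial, immune and steroidogenic markers were low or at 0 in the summed stromal cells. Mouse RNA is seen only through reads assigned to monkey genes, and whether these markers can be seen that way was not tested. Supporting-marker cells were low too, at 24.7, 48.2 and 26.3 CPM for the endothelial list and 2.60, 11.7 and 21.6 CPM for the immune list. All 12 endothelial markers stayed under 10 CPM in every library and summed to 9.86, 11.2 and 14.6 CPM, with PECAM1 at 0.282, 0 and 0.696 CPM. All 12 immune markers stayed under 10 CPM, and 5 of them were at 0 in all 3 libraries. Neither list held a gene at 50 CPM. The steroidogenic list, which holds the enzymes and receptors of theca cells, summed to 33.2, 32.8 and 44.2 CPM, with CYP17A1, the enzyme of androgen synthesis, at 0 in all 3. Germ cell markers summed to 21.40, 15.53 and 41.78 CPM, and 12, 0 and 6 stromal cells held a UMI of DDX4, the helicase that marks germ cells. A UMI of DAZL, another germ cell gene, was held by 33, 5 and 35 stromal cells, which is 5.18%, 2.24% and 5.56%. Among markers of smooth muscle and pericytes, ACTA2, the smooth muscle actin, was at 397, 278 and 230 CPM. MYH11, the myosin that defines mature smooth muscle, was at 8.17, 1.73 and 7.31 CPM. RGS5, a pericyte gene, was at 1.13, 0 and 0 CPM.

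Traces of supporting and surface cells differed between the libraries and stand beside the results they touch. INHA, the inhibin alpha chain of granulosa cells, was held by 43, 28 and 39 stromal cells, and was at 32.1, 132 and 45.3 CPM. Cells with at least 2 UMIs of the surface epithelium and mesothelium list numbered 5, 21 and 55, which is 0.785%, 9.42% and 8.74% of the stromal cells. That list summed to 20.3, 150 and 196 CPM in stromal cells, against 195, 220 and 621 CPM in supporting-marker cells, with MSLN, a mesothelial surface protein, at 0 in all of them. WNT4, a secreted signal that the rule counts as a supporting gene, was at 559, 887 and 908 CPM in stromal cells and at 554, 490 and 626 CPM in supporting-marker cells. It was thus as high in the stroma as in the class it was meant to mark, and 50.4%, 62.3% and 62.3% of stromal cells held at least 3 UMIs of the supporting genes.

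Between the classes, 156 of 2594 genes were at least 2-fold higher in stromal than in supporting-marker cells in all 3 libraries (6.01% of those compared), and 93 were at least 2-fold lower (3.59%). A gene was compared where 1 of the classes reached 50 CPM in each library, and folds are ratios of CPM + 1. Nothing can be read from these shares, since the rule drew the line between the classes. They stand as the base for the counts of each gene list below. The median gene was at a log2 ratio of -0.15, which became 0.06 with edgeR TMM factors and 0.02 with DESeq2 size factors. The split of 156 higher and 93 lower became 183 and 67 with TMM factors. Against INHA-high cells, 175 of 2652 genes were at least 2-fold higher in stromal cells in all 3 libraries (6.6%) and 173 were lower (6.52%).

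Matrix genes included some of those that chose the cells. Of the fibrillar collagen list, which also holds partner genes, 8 genes were compared. Of these, 6 were at least 2-fold higher in stromal cells, against 6.01% of all genes compared. The median log2 ratio was 3.07, beside -0.15 for all genes. COL1A1, COL1A2 and COL3A1, 3 of the 6, belong to the rule, and the other 3 were COL5A2, COL12A1 and COL16A1. COL16A1, a collagen that associates with fibrils, was at 147, 192 and 232 CPM in stromal cells, against 16.9, 11.2 and 34.6 CPM in supporting-marker cells. COL12A1, another fibril-associated collagen, was at 176, 160 and 133 CPM, against 19.8, 21.3 and 18.8 CPM. COL15A1, a collagen of the zone next to basement membranes, was at 46.8, 95.8 and 58.1 CPM and at no more than 1.30 CPM in supporting-marker cells of any library.

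Proteoglycans and matrix glycoproteins had 10 of 11 compared genes at least 2-fold higher, against 6.01% of all genes compared, 0 lower and a median log2 ratio of 4.71. DCN and LUM among the 10 are genes of the rule. SPARCL1, a secreted matrix-associated protein, stood at 282, 176 and 163 CPM in stromal cells, against 6.82, 4.06 and 4.69 CPM. EMILIN1, an elastic fibre protein, stood at 203, 106 and 207 CPM, against 6.50, 3.55 and 4.69 CPM. BGN, the small proteoglycan biglycan, stood at 131, 87.2 and 99.2 CPM, against 1.62, 2.54 and 3.91 CPM. In each of these the lowest stromal value was more than 10 times the highest value of the other class. FN1, fibronectin, was at 85.9, 259 and 67.9 CPM, against 2.27, 7.61 and 2.08 CPM, and was highest in E14.5 in both classes. SPARC, a collagen-binding protein present in both, was at 2873, 2433 and 4517 CPM, against 788, 581 and 810 CPM. The exception in direction was THBS1, thrombospondin, at 247, 396 and 211 CPM in stromal cells and 504, 562 and 319 CPM in supporting-marker cells.

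Around the matrix itself, the lists were less one-sided, beside 6.01% higher and 3.59% lower of all genes compared. Of 5 compared basement membrane genes 2 were at least 2-fold higher, LAMA2 and LAMB1, and 0 were lower. LAMA2, the laminin chain of muscle and mesenchyme, was at 174, 171 and 163 CPM, against 10.4, 11.2 and 11.5 CPM. LAMB2, by contrast, was at 42.5, 62.1 and 53.3 CPM in stromal cells and 105, 120 and 133 CPM in supporting-marker cells. Of the collagen processing list 2 of 5 compared genes were at least 2-fold higher, with PLOD2, a lysyl hydroxylase that prepares collagen for cross-linking, at 118, 136 and 138 CPM, against 6.17, 11.2 and 14.1 CPM. Of the proteases and inhibitors 2 of 6 were at least 2-fold higher, MMP14 and SERPINF1. MMP2, a gelatinase that MMP14 activates, was at 72.7, 82.8 and 42.5 CPM, against 2.60, 4.06 and 0.781 CPM, but was under 50 CPM in E15.5 and was not counted.

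**Figure D2:**
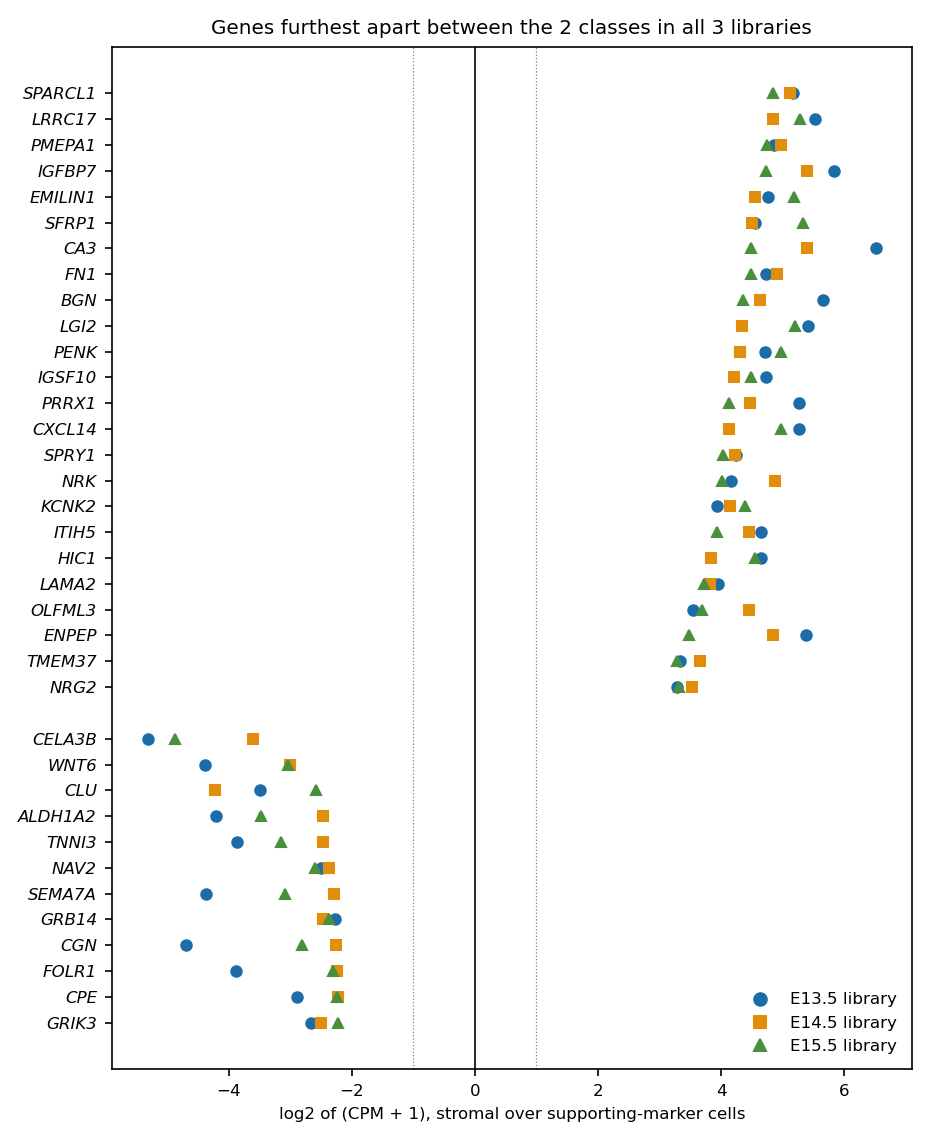
The log2 ratio of CPM + 1 in stromal over supporting-marker cells for genes among the 25 higher and 12 lower furthest apart in all 3 libraries, 1 point for each library, with dotted lines at 2-fold. Every point of the upper block lies right of 3 on this scale and every point of the lower block left of -2, as with SPARCL1 at 5.17, 5.13 and 4.85 and CELA3B at -5.32, -3.60 and -4.87.

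Outside the matrix, the genes furthest above supporting-marker cells in all 3 libraries included secreted binding proteins, channels and transcription factors. IGFBP7, a secreted protein that binds insulin-like growth factors, stood at 6209, 4619 and 5824 CPM in stromal cells, against 108, 109 and 219 CPM. PMEPA1, an inhibitor of TGF-beta signalling, stood at 950, 1081 and 667 CPM, against 31.8, 33.5 and 24.0 CPM. KCNK2, a potassium channel, stood at 536, 592 and 515 CPM, against 34.1, 32.5 and 23.7 CPM, nearly the same in each stage. PENK, the precursor of the enkephalin peptides, was at 111, 79.4 and 63.4 CPM, against 3.25, 3.04 and 1.04 CPM. The 25 genes also held LRRC17, LGI2, IGSF10, SPRY1, NRK, ITIH5, HIC1, OLFML3, ENPEP, TMEM37 and NRG2, each with a log2 ratio of at least 3 in every library.

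The 12 genes furthest below supporting-marker cells included secreted signals and enzymes. CELA3B, of the elastase family of the pancreas, stood at 5.91, 30.2 and 9.05 CPM in stromal cells and 274, 377 and 293 CPM in supporting-marker cells. WNT6, a secreted signal, stood at 6.48, 6.90 and 7.66 CPM, against 156, 62.4 and 70.1 CPM. ALDH1A2, an enzyme that makes retinoic acid, stood at 13.0, 31.9 and 16.7 CPM, against 257, 182 and 197 CPM. Several of the lower genes were least far apart in E14.5, the library with the largest INHA level in stromal cells, and the part of cells carrying both sets of RNA in this was not tested. Without E14.5, 147 genes rather than 93 were at least 2-fold lower. KITLG was at 16.6, 47.5 and 27.5 CPM in stromal cells and at 245, 202 and 151 CPM in supporting-marker cells.

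Transcription factors of mesenchyme were shared out unevenly. Of 18 compared genes of that list, 11 were at least 2-fold higher in stromal cells and 1 was lower. Of all genes compared, 6.01% were higher and 3.59% lower. The list's median log2 ratio was 1.81. The 11 include TCF21, a gene of the rule. NR2F2, also called COUP-TFII and known from the interstitium of the gonad, stood at 1629, 1790 and 1754 CPM in stromal cells, against 212, 269 and 225 CPM. PRRX1, a limb and craniofacial mesenchyme factor, stood at 162, 200 and 158 CPM, against 3.25, 8.12 and 8.08 CPM. Both varied little between stages beside their distance from the other class. The lower gene was EMX2, needed for the growth of the gonadal epithelium, at 71.3, 90.6 and 112 CPM in stromal cells and 373, 335 and 376 CPM in supporting-marker cells.

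HOX genes of the posterior body were present in both classes. Of 5 compared HOX genes 1 was at least 2-fold higher in stromal cells, against 6.01% of all genes compared. This was HOXD9, at 90.7, 63.9 and 60.9 CPM, against 16.9, 5.07 and 13.8 CPM. Its neighbour in the cluster HOXD10 was at 80.0, 41.4 and 73.5 CPM, against 8.45, 3.04 and 7.55 CPM, and missed the level required in E14.5. HOXC6, at 174, 199 and 191 CPM in stromal cells and 126, 90.3 and 171 CPM in supporting-marker cells, was past 2-fold in E14.5 but not in the other libraries.

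Of the platelet-derived growth factor list 1 gene could be compared, the ligand PDGFC, and it was at least 2-fold lower in stromal cells. PDGFRA, a rule gene and the receptor for platelet-derived growth factor, was at 81.7, 79.4 and 45.3 CPM in stromal cells, against 7.47, 3.04 and 1.82 CPM. PDGFRB was at 25.3, 13.8 and 7.66 CPM, against 0.650, 0 and 0 CPM. PDGFC was at 10.4, 19.8 and 41.4 CPM in stromal cells and 96.5, 103 and 122 CPM in supporting-marker cells. PDGFA, another ligand, was at 6.196, 5.18 and 20.2 CPM, against 35.7, 11.2 and 51.1 CPM. In stromal cells the receptor levels were lowest and both ligand levels highest in E15.5.

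Hedgehog pathway genes were low but uneven. GLI1, a transcription factor switched on by hedgehog signals, was at 29.3, 17.3 and 24.4 CPM in stromal cells, against 0.325, 0 and 0.781 CPM in supporting-marker cells. PTCH1, the hedgehog receptor and also a target, was at 154.9, 58.7 and 55.4 CPM in stromal cells and at 56.5, 62.9 and 47.9 CPM in supporting-marker cells, so it stood apart in E13.5 only. The ligands DHH and IHH were at or under 1 CPM in stromal cells of every library. GAS1, a co-receptor, was at 140, 212 and 255 CPM, against 121, 86.8 and 118 CPM. Of 12 genes in the list, 2 could be compared and 0 were at least 2-fold apart in all 3 libraries.

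In the WNT list, 2 of 8 compared genes were at least 2-fold higher in stromal cells and 1 was lower. Over all genes compared these shares were 6.01% and 3.59%, and the list's median log2 ratio was -0.05. SFRP1, a secreted WNT antagonist, was at 603, 1144 and 645 CPM, against 24.7, 49.7 and 15.1 CPM. FZD1, a WNT receptor, was at 71.0, 110 and 67.2 CPM, against 8.45, 7.61 and 11.2 CPM. RSPO3, which amplifies WNT signals, was at 40.3, 26.8 and 75.9 CPM, against 0.650, 1.52 and 4.43 CPM. WNT5A was at 81.1, 55.2 and 33.8 CPM, against 7.15, 8.12 and 9.38 CPM, with the lowest stromal value in E15.5. AXIN2, a common target of WNT signals, was at 32.4, 48.3 and 51.9 CPM in stromal cells and 72.5, 57.9 and 89.1 CPM in supporting-marker cells.

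TGF-beta family genes were higher in 3 of 10 compared and lower in 0, against 6.01% and 3.59% of all genes. The median log2 ratio of the list was 0.75. ID2, a target of bone morphogenetic proteins, was at 566, 1089 and 723 CPM in stromal cells, against 101, 133 and 181 CPM. TGFBR2, a TGF-beta receptor, was at 84.2, 101 and 58.8 CPM, against 11.4, 8.63 and 5.73 CPM. INHBA, an activin chain, was at 26.5, 58.7 and 38.3 CPM, against 5.85, 5.07 and 8.60 CPM. It was under 50 CPM in E13.5 and E15.5 and was not counted. ID2, TGFBR2 and INHBA were each highest in E14.5 among the stromal sums.

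Among secreted growth factors and chemokines, IGF1, PTN, MDK and CXCL12 were all higher in the stroma. IGF1, insulin-like growth factor 1, was at 213, 159 and 180 CPM in stromal cells, against 26.3, 32.0 and 29.96 CPM. MDK, midkine, was at 893, 496 and 804 CPM, against 174, 174 and 112 CPM. PTN, pleiotrophin, was at 226, 764 and 790 CPM, against 26.3, 42.6 and 105 CPM. CXCL12, the chemokine that guides migrating germ cells in mouse embryos, was at 200, 67.3 and 154 CPM, against 5.85, 6.09 and 5.73 CPM. Of 7 compared chemokine and cytokine genes 4 were at least 2-fold higher, and 1, KITLG, was lower. Over all genes compared, 6.01% were higher and 3.59% lower. The insulin-like growth factor list had 3 of 5 higher and 1 lower, IGFBP5, at 15.49, 79.4 and 50.1 CPM in stromal cells and 247, 255 and 344 CPM in supporting-marker cells.

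**Figure D3:**
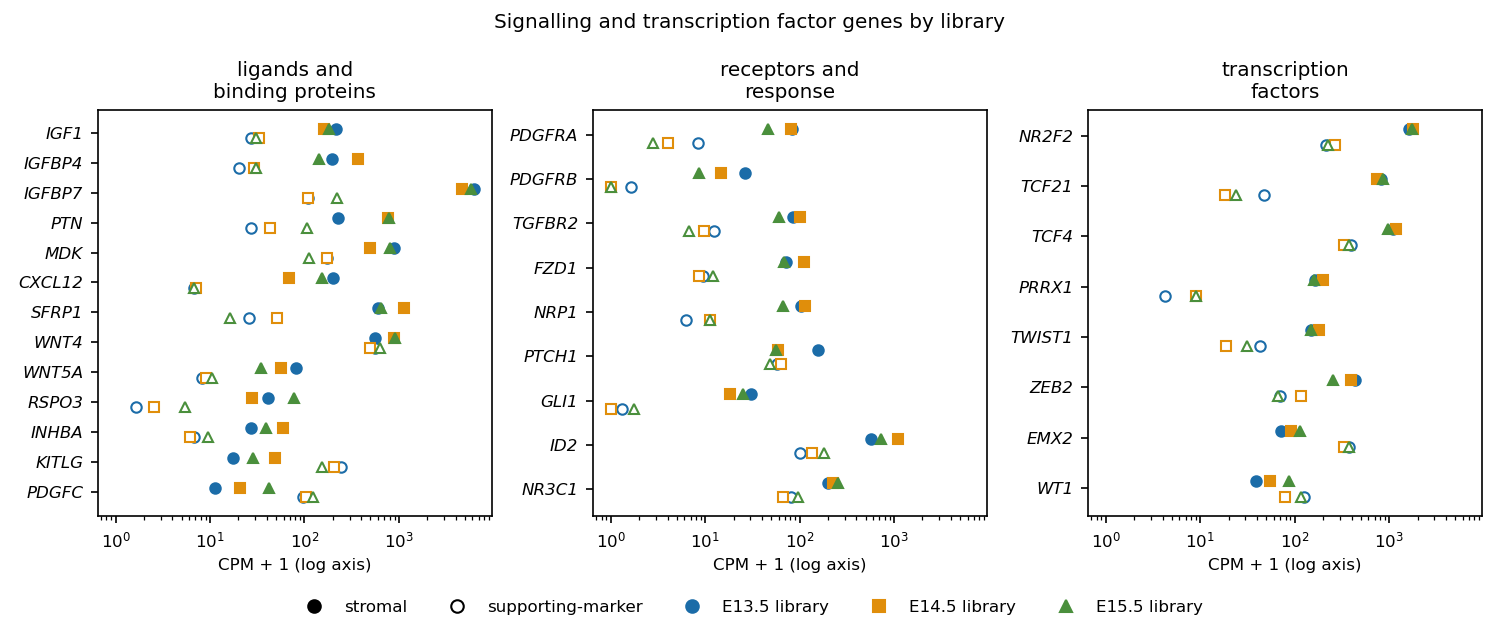
CPM + 1 (log axis) of signalling and transcription factor genes in summed stromal cells (filled) and supporting-marker cells (open), 1 point for each library. The receptor TGFBR2 lies to the right in stromal cells (58.8 CPM or more, against 11.4 CPM or less), PDGFRA and TCF21 do so as genes of the rule, and the ligands KITLG and PDGFC lie to the right in supporting-marker cells, and WNT4 overlaps.

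Other groups differed between stromal and supporting-marker cells by level rather than by presence. APOE, the lipid carrier apolipoprotein E, was at 4046, 2871 and 2366 CPM, against 1398, 1207 and 1675 CPM. Of 5 compared glycolysis genes 0 were at least 2-fold apart in all 3 libraries, with a median log2 ratio of -0.60, beside -0.15 for all genes. GAPDH was at 580, 624 and 943 CPM in stromal cells and 1269, 1266 and 1740 CPM in supporting-marker cells. Genes of the S phase and of the G2 and M phase did not reach 50 CPM in any stromal library. The G2 and M list summed to 73.5, 61.3 and 84.6 CPM in stromal cells and to 187, 224 and 106 CPM in supporting-marker cells. In INHA-high cells it summed to 88.6, 38.6 and 167 CPM, which is below the stromal sum in E14.5. CDKN1B, a cell cycle inhibitor, was at 114, 126 and 92.97 CPM in stromal cells, against 376, 298 and 374 CPM in supporting-marker cells. The stress-responsive genes, which rise during enzymatic dissociation, summed to 25638, 20145 and 21475 CPM in stromal cells, against 16259, 12850 and 15519 CPM.

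Stromal cells were not alike among themselves. Each gene's variance between cells was set against that expected from counting alone, where a ratio of 1 is pure counting error. By the smallest of its 3 ratios ACTA2 stood highest, at 76.4, 38.7 and 36.3. The ratio also grows with a gene's level, so it does not rank genes by unevenness alone. IGFBP7, among the genes with the highest CPM, was at 23.1, 12.8 and 23.0. JUN was at 33.0, 19.8 and 25.9, and APOE at 40.7, 18.9 and 17.8. CA3, at 25.2, 15.2 and 9.88, and CXCL14, at 18.2, 19.5 and 6.17, were uneven too, as a few cells held many copies. JUN and FOS are also known to respond to cell dissociation, whose part in this was not tested.

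To compare shares of cells at 1 depth, each cell was thinned to 2000 UMIs, which left out 22, 12 and 18 stromal cells. IGFBP7 was then seen in 97.2%, 93.4% and 94.3% of stromal cells, against 98.3%, 94.6% and 97.1% without thinning. In monkey barcodes thinning gave 6.12%, 4.79% and 4.93%. Without thinning IGFBP7 was seen in 35.3%, 37.9% and 36.8% of them, at median depths of 43970, 39339 and 41808.5 UMIs. CA3 was seen in 17.2%, 33.2% and 14.4% of thinned stromal cells (21.8%, 37.7% and 19.2% without thinning) and in 0.299%, 0.660% and 0.227% of thinned monkey barcodes. CXCL14 was seen in 16.9%, 35.1% and 12.6% of thinned stromal cells (26.8%, 45.7% and 19.6% without thinning) and in 1.34%, 0.660% and 0.531% of thinned monkey barcodes. IGFBP7 was therefore seen in nearly all cells of the class. CA3 and CXCL14 were each seen in a minority, most often in E14.5. A share also depends on how well a gene's mouse reads are assigned, so genes cannot be ranked by it.

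Cells with at least 2 UMIs of CA3 numbered 108, 68 and 82 and were set beside those without any. The genes given here and for GSN, ACTA2 and the surface list are among the 10 furthest apart each way at 100 CPM or more, ranked by the smallest of the 3 ratios, so that their direction is shared by choice, and these dividing genes were picked after values were seen. WNT4 was at 947, 1311 and 1593 CPM in CA3 cells, against 468, 593 and 774 CPM in cells without CA3. ENPP2, the enzyme that makes lysophosphatidic acid, was at 171, 207 and 272 CPM, against 92.8, 50.9 and 138 CPM. In the other direction, ACTA2 was at 88.0, 87.1 and 70.1 CPM in CA3 cells, against 490, 418 and 272 CPM. GSN, the actin-severing protein gelsolin, was at 390, 87.1 and 474 CPM, against 1235, 368 and 1372 CPM. APOE was at 1393, 1595 and 1140 CPM, against 4806, 3647 and 2683 CPM. The CA3 cells and those without were of similar depth, with medians of 5354, 5092 and 4098 UMIs against 5308, 4313 and 3956.

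Cells with at least 2 UMIs of GSN, 418, 60 and 364 in number, differed in the opposite direction for several of these genes. S100A6, a small calcium-binding protein, was at 538, 1600 and 836 CPM in them, against 116, 282 and 118 CPM in cells without GSN. FBLN1, the matrix protein fibulin 1, was at 522, 421 and 764 CPM, against 134, 185 and 185 CPM. COL1A1 was at 2136, 2921 and 4248 CPM, against 1052, 1400 and 1355 CPM. CXCL12 was also higher in GSN cells, at 241, 116 and 192 CPM, against 123, 41.9 and 93.4 CPM, as were FN1, IGF1 and SERPING1. CA3 was lower in them, at 295, 190 and 133 CPM, against 727, 935 and 349 CPM.

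ACTA2 marked a smaller set of 90, 27 and 63 cells. TAGLN, transgelin, was at 319, 126 and 269 CPM in them, against 8.16, 18.7 and 23.4 CPM in cells without ACTA2. TPM2, a tropomyosin, was at 978, 682 and 884 CPM, against 209, 234 and 234 CPM, and MYLK, the myosin light chain kinase, at 367, 407 and 426 CPM, against 148, 200 and 191 CPM. SFRP1 was lower, at 363, 780 and 396 CPM, against 676, 1237 and 690 CPM. These are contractile genes. MYH11 stayed under 10 CPM over all stromal cells, as given above. Most of those cells lie outside this set, so that value does not give the level of MYH11 within it.

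**Figure D4:**
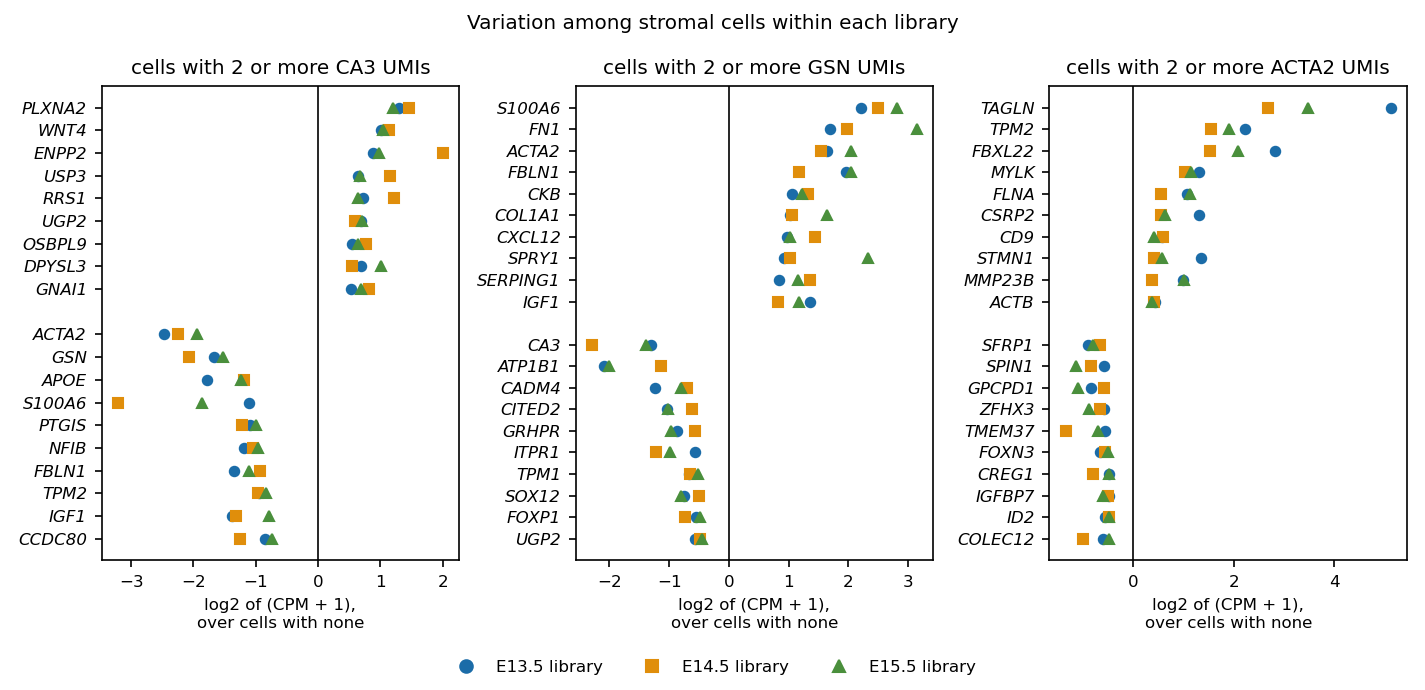
The log2 ratio of CPM + 1 in stromal cells with 2 or more UMIs of CA3, GSN or ACTA2 over stromal cells with none of that gene, for genes among the 10 higher and 10 lower furthest apart, 1 point for each library. CA3 is among the lower genes of GSN cells (295, 190 and 133 CPM, against 727, 935 and 349 CPM) and GSN among the lower genes of CA3 cells, in all 3 libraries.

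The cells with surface-list UMIs were a set apart. LHX9, a gonadal transcription factor of the coelomic epithelium, was at 460, 434 and 385 CPM in them, against 5.90, 4.35 and 5.94 CPM in stromal cells without such UMIs. IRX5 was at 345, 498 and 613 CPM, against 11.5, 28.3 and 20.1 CPM. Typical stromal genes were low in them: LAMA2 was at 0, 16.1 and 9.39 CPM, against 176, 200 and 193 CPM, and KCNK2 at 0, 24.1 and 51.6 CPM, against 541, 662 and 603 CPM. LAMA2 and KCNK2 are not genes of the rule. The median depth of the cells with surface-list UMIs was 5680, 6366 and 6917 UMIs, against 5293, 4416 and 3792.5. In E13.5 they were 5 cells with 26069 UMIs in all, so that levels of 0 there are imprecise. Counts between stages are therefore also given without the cells with surface-list UMIs.

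Between E14.5 and E13.5, 62 of 2822 genes were at least 2-fold higher in the E14.5 stromal cells (2.2% of those compared) and 98 were lower (3.47%). The median gene was at 0.19 on the log2 scale. With TMM factors the split was 48 higher and 132 lower, and without the cells with surface-list UMIs it was 67 and 95. Between E15.5 and E13.5, 57 of 2778 genes were higher in E15.5 (2.05%) and 45 lower (1.62%), and without the cells with surface-list UMIs 26 were higher and 31 lower. Between E15.5 and E14.5, 127 of 2904 genes were higher in E15.5 (4.37%) and 89 lower (3.06%). Without the cells with surface-list UMIs these were 115 and 113. The pair furthest apart in age, E15.5 and E13.5, thus had the fewest genes past 2-fold, and the E14.5 library, with the fewest stromal cells, entered both of the others.

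The genes furthest above E13.5 in the later libraries included genes high in the cells with surface-list UMIs. GPM6A, a membrane glycoprotein of the mesothelium, was at 2.25, 50.05 and 51.9 CPM in stromal cells, and KRT19, a keratin, at 3.38, 56.1 and 65.8 CPM. LHX9 was at 10.7, 56.1 and 65.8 CPM. In supporting-marker cells GPM6A was at 11.7, 18.3 and 80.8 CPM and KRT19 at 120, 108 and 382 CPM. Without the cells with surface-list UMIs, which are partly chosen by GPM6A and KRT19, the E14.5 over E13.5 log2 ratio of GPM6A was -0.89 rather than 3.97 and that of LHX9 was 0.47 rather than 2.29. The E15.5 over E13.5 ratio of CRIP1, at 8.73, 19.8 and 52.2 CPM, became -0.246 rather than 2.45. ATP1B1, a subunit of the sodium pump, kept a ratio of 1.54 without those cells, against 2.44 with them, for E15.5 over E13.5, at 126, 516 and 686 CPM with all cells.

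Of the genes of the stroma's own signals, PTN was at 226, 764 and 790 CPM, with exact Poisson 95% limits of 211 to 242, 714 to 816 and 758 to 824. In CPM the later libraries were alike and both lay above E13.5. The share of stromal cells with PTN was 20.5%, 35.5% and 49.6% after thinning and 32.7%, 43.5% and 62.0% before it. By this share the later libraries differed, with 95% limits after thinning of 29.1 to 42.4 in E14.5 and 45.6 to 53.6 in E15.5. In supporting-marker cells PTN was at 26.3, 42.6 and 105 CPM, also lowest in E13.5. WNT4 was at 559 CPM in E13.5, below 887 CPM in E14.5 and 908 CPM in E15.5, a difference under 2-fold.

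**Figure D5:**
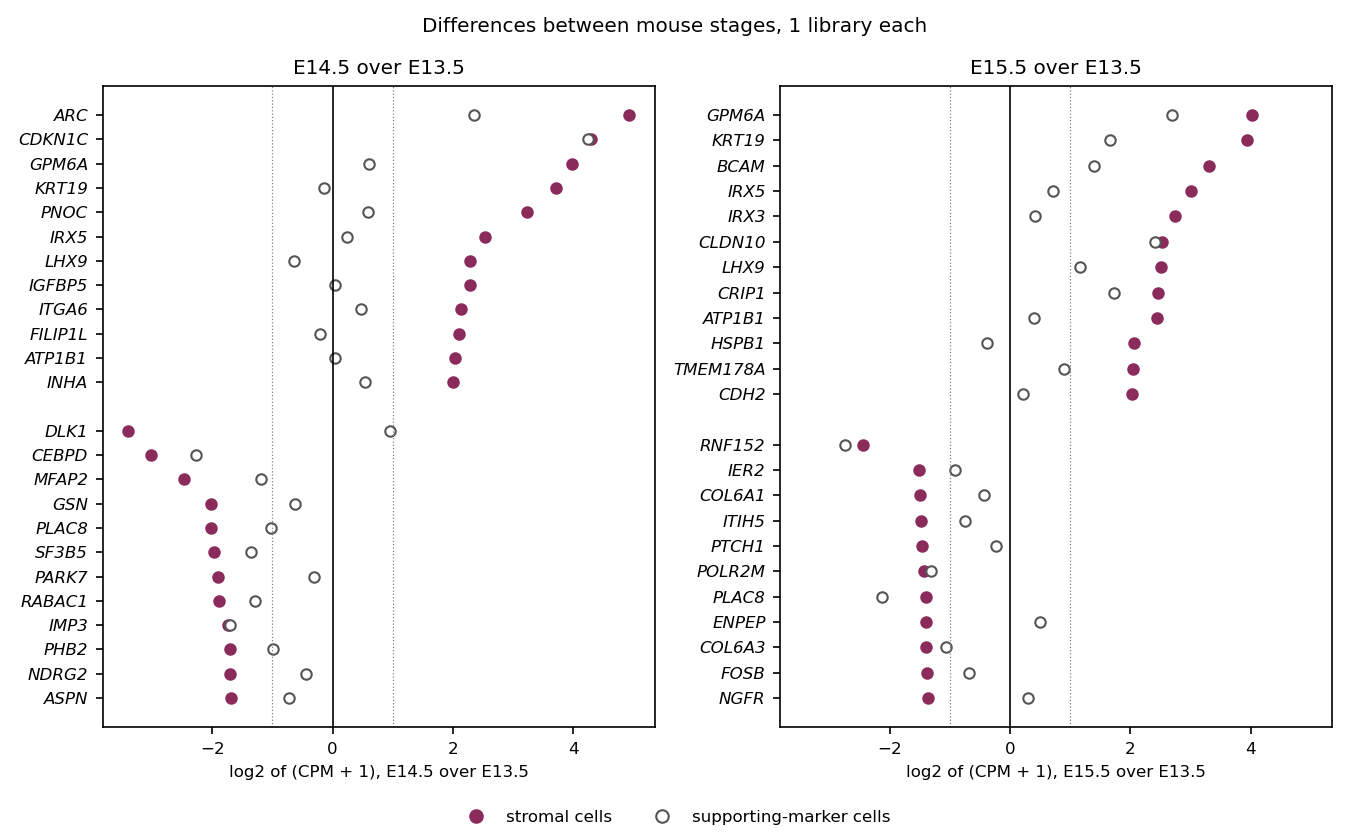
The log2 ratio of CPM + 1 between stages, 1 library each, for genes among the 12 higher and 12 lower furthest apart in stromal cells (filled), with the same ratio in supporting-marker cells (open) and dotted lines at 2-fold. DLK1 is at -3.40 in stromal and 0.95 in supporting-marker cells for E14.5 over E13.5, while RNF152 is at -2.44 and -2.74 for E15.5 over E13.5.

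In E15.5, matrix and receptor genes were among those furthest below E13.5. COL6A1, a type VI collagen chain, was at 151, 96.6 and 52.9 CPM over the 3 stages in stromal cells, and COL6A3 at 114, 68.2 and 42.8 CPM. Of the list of fibrillar collagens and partners, 4 of 11 compared genes were at least 2-fold lower in E15.5 than in E13.5 and 0 higher. Of all genes compared, 1.62% were lower. The list's median log2 ratio was -0.06, beside 0.10 for all genes. Its summed level was nevertheless highest in E15.5, at 6894, 7778 and 9192 CPM over the 3 stages. Type I collagen was not among the lower genes, with COL1A1 at 1830, 1867 and 3150 CPM. In supporting-marker cells COL6A1 was at 40.9, 27.4 and 30.2 CPM and COL6A3 at 20.1, 21.8 and 9.12 CPM. The log2 ratio of E15.5 over E13.5 was -1.49 in stromal and -0.43 in supporting-marker cells for COL6A1, and -1.39 and -1.06 for COL6A3. PTCH1 was at 154.9, 58.7 and 55.4 CPM, with supporting-marker cells at 56.5, 62.9 and 47.9 CPM, where the stages were close to each other. ITIH5, a hyaluronan-binding matrix protein, was at 229, 199 and 81.8 CPM, and ENPEP, an aminopeptidase, at 135.2, 115 and 50.8 CPM, both with E15.5 below the other 2 stages. RNF152 was at 80.0, 44.9 and 13.9 CPM in stromal and at 110, 44.7 and 15.6 CPM in supporting-marker cells, in the same order in both classes.

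Several genes were low in the E14.5 library alone. GSN was at 1048, 257 and 1212 CPM in stromal cells and at 69.9, 45.2 and 83.4 CPM in supporting-marker cells. DLK1, a NOTCH-related regulator of fat and mesenchyme progenitors, was at 347, 31.9 and 158 CPM, against 21.8, 43.1 and 21.4 CPM, and was held by 113, 14 and 98 stromal cells. MFAP2, a microfibril protein, was at 110, 18.98 and 95.1 CPM, against 11.7, 4.57 and 9.90 CPM. For all 3 the E14.5 stromal level was far below both others. However, some general cell genes were also low in the other mouse classes of E14.5. RABAC1 was at 263, 69.9 and 227 CPM in stromal cells, 179, 73.1 and 174 CPM in supporting-marker cells and 192, 58.8 and 156 CPM in INHA-high cells, but at 164, 179 and 163 CPM in monkey barcodes. IMP3, a ribosome biogenesis protein, was at 130, 38.0 and 115 CPM in stromal cells, 94.6, 28.4 and 66.9 CPM in supporting-marker cells and 49.6, 59.7 and 60.0 CPM in monkey barcodes. SF3B5, a splicing factor, was at 80.3, 19.8 and 71.0 CPM in stromal cells, against 88.4, 34.0 and 80.8 CPM. Set against the ratio in supporting-marker cells, 48 genes were at least 2-fold lower in E14.5 than in E13.5, and 22 of these were among the 98. What the mouse cells of E14.5 share in this was not tested, and stage and library cannot be told apart.

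Some genes high in E14.5 rested largely on 1 cell. ARC was at 1.69, 81.1 and 1.39 CPM, CDKN1C at 2.82, 74.2 and 2.44 CPM and PEG10 at 20, 78.5 and 5.92 CPM. A single E14.5 cell of 8116 UMIs held 90 of 94 ARC UMIs, 84 of 86 CDKN1C UMIs and 64 of 91 PEG10 UMIs, with a stromal sum of 10 and a supporting sum of 3. Without the top cell of each library, PEG10 kept an E15.5 over E14.5 log2 ratio of -2.24, against -3.52 with it. The E14.5 over E13.5 log2 ratio of CDKN1C was then -0.37 rather than 4.30 and that of ARC was 1.07 rather than 4.93. PNOC, the precursor of the peptide nociceptin, rested on more cells: it was at 14.4, 142 and 3.48 CPM, with 22 E14.5 cells holding it and at most 32 UMIs in any of them, and its ratio was 3.46 without the top cells, against 3.22.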

How the data were processed

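The authors' deposited files hold raw UMI counts for 26017 monkey features per barcode, written by Cell Ranger (per the file headers, version 6.0.1) from 10x Genomics 3' v3.1 libraries per the labels' protocols. The sources used here do not state the genome build or annotation. Of 9282 LOC features, 669 were named through their gene number in a RefSeq gene table used for names only, CXCL14 and UPK3B among them. Counts of a class were summed per library and divided by its total (CPM). Ratios used CPM + 1 and a size rule of 2-fold with 50 CPM. Named genes were the 12 furthest apart each way between stages, the 25 highest and 12 lowest against supporting-marker cells by the smallest of 3 ratios, and members of 33 fixed lists (532 of 547 genes found). Ribosomal, mitochondrial, histone and unnamed genes were left out, and a few genes that met the rule are not reported here. GLI1, PDGFRB, PDGFA, DHH and IHH, low members of those lists, were named after values were seen. The members and lists were chosen with earlier results of these data known. No doublet caller was run, and cells with the most UMIs were left out as an alternative. The size rule was tested on simulated data. Software was Python 3.11.15 (pandas 2.3.3, numpy 2.4.6, matplotlib 3.10.9, scipy 1.17.1) and R 4.3.3 with edgeR 4.0.16 and DESeq2 1.42.0 for scaling factors only.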

Additional observations from a re-analysis of the deposited data

Results flagged for a closer look

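A signal appeared among barcodes that the comparisons did not use. In E13.5, 31 barcodes with fewer than 1000 UMIs met every other criterion of the stromal class, and their summed CA3 and CXCL14 stood at 190 CPM, above the limit that 3 counts allow. Whether they are small cells or fragments was not tested.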

How the results depend on the processing

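No paired analysis was possible because each stage has 1 library. A minimum of 20 CPM gave 136 higher and 217 lower genes for E14.5 over E13.5, 108 and 96 for E15.5 over E13.5, 285 and 207 for E15.5 over E14.5, and 268 and 173 for stromal over supporting-marker cells. With no minimum these were 729 and 1320, 706 and 541, 1818 and 907, and 576 and 425. Higher genes in E15.5 over E13.5 numbered 34 without the tenth of cells with the most UMIs, 37 by the mean of the cells' own CPM and 26 without cells with surface-list UMIs, an alternative chosen after seeing the data. The last gave 144 genes lower in stromal than in supporting-marker cells. Leaving out 1 library at a time gave 101 to 147 lower genes and 171 to 184 higher. Relative to supporting-marker cells, also a later choice, 48 genes were lower for E14.5 over E13.5 and 44 higher for E15.5 over E14.5, and the sign turned for E15.5 over E13.5 in RNF152 (0.30) and PLAC8 (0.73), and for E15.5 over E14.5 in PRELP (-0.00415) and CXCL14 (0.85). Without surface-list cells it turned in GPM6A (-0.89) and CRIP1 (-0.246). Without each gene's top cell, a later choice too, it turned in CDKN1C, at -0.37 for E14.5 over E13.5 and 0.18 for E15.5 over E14.5. Requiring a stromal sum of 2 times the supporting sum gave shares of 27.2% in E14.5 and 31.3% in E15.5. Of the counts and shares, the other 128 values kept within 1.5 times of the reported count or within the interval of the share. Among values for single genes, 250 moved without a change of sign, beside the 8 turned signs given above and 1290 labelled the same. The cause was not tested. Precision is limited most in E14.5, with 223 cells.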
